A study of Mus musculus with 23 samples.

Results

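Transcripts of 40 genes of the skeletal muscle fiber were followed in 23 pieces of MC38 tumor. The 40 genes were a list of symbols, all of which were found among the 26869 genes of the expression table, and were divided by role into 13 isoforms of fast fibers, 7 isoforms of slow fibers, 11 sarcomere and Z-disc genes, 3 calcium release genes and 6 energy metabolism genes shared by fiber types. The list was chosen by measured values of some of these genes, their difference between responder and non-responder tumors after aPD1, so that difference is given below as a description only.

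MC38 cells derive from a colon carcinoma of the mouse, and the hosts were female F1 mice from crosses of C57BL/6J with 6 lines of the Collaborative Cross, a panel of recombinant inbred mice with diverse founders. Mice aged 8 to 12 weeks carried a tumor grown under the skin from injected cells, received a single 200 µg dose of anti-PD-1 (aPD1) or its isotype control when the tumor measured 75 to 110 mm3, and were killed 48 h later. The responder (R) lines CC001F1, CC002F1 and CC075F1 gave 6 isotype and 6 aPD1 tumors, and the non-responder (NR) lines CC036F1, CC079F1 and CC080F1 gave 6 isotype and 5 aPD1 tumors, because CC080F1 had 1 tumor with aPD1. Classes R and NR were taken from the study's text, and each of the other 11 combinations of line and antibody had 2 tumors. All hosts carried the same cell line and were untreated apart from the antibody. Tumors meant for digestion were, by the study's methods, cut free of the skin around them with a blade, while tumors for bulk RNA are described only as harvested and frozen.

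Skeletal muscle contracts when myosin heavy chains, the motors of the thick filament, pull on actin filaments. Calcium released from the sarcoplasmic reticulum acts on troponin to permit this, and the calcium pump Atp2a1 returns it to the store. Fast and slow fibers build the same machine from different isoforms of myosin, troponin and myosin binding protein, and fast fibers of limb and trunk draw more on phosphocreatine and glycogen. Below the skin of a mouse lies a thin sheet of striated muscle, the panniculus carnosus, and MC38 cells are not themselves muscle.

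Totals ran from 14493982 to 71868238 counts per tumor, with 6 shallow and 17 deep libraries (at least 30000000 counts), and 3 counts corresponded to 0.0422 CPM in the deepest and 0.203 CPM in the shallowest tumor. Levels in CPM are counts relative to the library size, which was scaled by the trimmed mean of M values (TMM). Levels of epithelial genes that could mark carcinoma cells were low in every tumor, with at most 1.78 CPM for Epcam, 4.74 CPM for Krt8 and 22.98 CPM for Cdh1.

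Because members moved together from tumor to tumor, the starts of 5 genes that differ in behaviour are shown first. Ckm, Acta1 and Myh4 were among the genes with the widest range, and Xirp2 took a larger share in several tumors with an intermediate or low sum. Eno3 was at 10 CPM or more in every tumor. RefSeq promoter windows on GRCm38.p6 were matched for 31 of the 40 members, with 38 windows. Each printed sequence is the 250 bases before the annotated start, 5′ to 3′ on the strand of the gene, with capitals marking the E-box CAGCTG, the MEF2 element and the CArG box.
Ckm, chr7:19410844-19411093, strand +: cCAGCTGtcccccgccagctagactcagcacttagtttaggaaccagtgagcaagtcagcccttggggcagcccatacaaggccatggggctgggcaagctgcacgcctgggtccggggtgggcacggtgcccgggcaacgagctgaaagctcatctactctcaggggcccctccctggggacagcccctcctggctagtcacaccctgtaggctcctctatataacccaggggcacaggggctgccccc
Acta1, chr8:123894776-123895025, strand -: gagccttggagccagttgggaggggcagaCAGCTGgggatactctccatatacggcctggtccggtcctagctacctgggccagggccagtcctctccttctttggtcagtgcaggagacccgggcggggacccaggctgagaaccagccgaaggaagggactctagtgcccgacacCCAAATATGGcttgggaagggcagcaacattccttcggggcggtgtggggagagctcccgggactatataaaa
Myh4, chr11:67237562-67237811, strand +: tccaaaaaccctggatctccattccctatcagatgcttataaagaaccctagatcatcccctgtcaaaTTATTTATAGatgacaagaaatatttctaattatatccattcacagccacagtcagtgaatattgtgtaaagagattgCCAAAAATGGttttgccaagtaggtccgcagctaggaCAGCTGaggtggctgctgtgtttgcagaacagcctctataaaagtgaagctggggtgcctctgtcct
Xirp2, chr2:67445752-67446001, strand +: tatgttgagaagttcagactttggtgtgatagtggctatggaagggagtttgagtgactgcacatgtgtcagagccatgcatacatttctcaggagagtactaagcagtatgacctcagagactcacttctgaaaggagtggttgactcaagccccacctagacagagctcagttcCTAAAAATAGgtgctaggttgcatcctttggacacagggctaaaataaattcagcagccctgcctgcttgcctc
Eno3, chr11:70656926-70657175, strand +: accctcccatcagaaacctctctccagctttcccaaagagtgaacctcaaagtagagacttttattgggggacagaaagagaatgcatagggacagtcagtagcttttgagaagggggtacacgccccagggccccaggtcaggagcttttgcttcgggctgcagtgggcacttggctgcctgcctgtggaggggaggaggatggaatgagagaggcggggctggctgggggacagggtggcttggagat

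The E-box form CAGCTG, of the kind bound by MyoD family factors, lay in the 250 bases of 14 of the 31 genes (45.2%), against 13% of all 32851 windows. The looser E-box CANNTG, which includes the former, lay in 26 of the 31 genes (83.9%) against 66.2% of all windows. The MEF2 element was found in 6 of the 31 genes (Myh1, Myh4, Pgam2, Pvalb, Ttn and Xirp2) against 2.92% of windows, and the CArG box, the core of serum response elements, in 4 (Acta1, Ldb3, Myh4 and Myl3) against 1.47%. A gene was counted if any of its windows matched, while the background is counted by window. By window, CAGCTG lay in 16 of the 38 member windows, CANNTG in 31, the MEF2 element in 6 and the CArG box in 5. All were searched on both strands, and a match describes the letters only. Of the 5 windows shown, that of Myh4 held all 3 capitalized motifs and that of Eno3 none.

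The level of the whole group was uneven. Summed over the 40 members, the level was 1201 CPM in CC001F1 aPD1 replicate 1, 530.1 CPM in CC001F1 isotype replicate 1, 433 CPM in CC080F1 isotype replicate 2 and 426 CPM in CC075F1 aPD1 replicate 1. These 4 tumors, of which 3 came from R lines and 1 from an NR line, held no pair of replicates. The next values were 144 CPM in CC002F1 aPD1 replicate 2 and 93.3 CPM in CC075F1 isotype replicate 2, and the other 17 tumors lay between 32.6 and 68.2 CPM.

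As a share of all counts, the members took 0.113% in CC001F1 aPD1 replicate 1 (95% exact binomial interval 0.112 to 0.114%), 0.0517% in CC001F1 isotype replicate 1 (0.0512 to 0.0523%), 0.0425% in CC075F1 aPD1 replicate 1 and 0.0422% in CC080F1 isotype replicate 2. The lowest share was 0.00332%, in CC075F1 aPD1 replicate 2, whose library was the shallowest. Intervals and floors cover counting error only. In bulk tissue, fewer muscle fibers and less RNA per fiber cannot be told apart.

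Tumors of the same line and antibody could differ widely. The summed level differed 30.5-fold between the 2 CC001F1 tumors given aPD1, 13.2-fold between the 2 CC001F1 isotype tumors, 13.1-fold between the 2 CC075F1 tumors given aPD1 and 9.04-fold between the 2 CC080F1 isotype tumors. For the fast isoforms alone these ratios were 243.5, 68.8, 122 and 21.98. The smallest was in CC036F1 isotype tumors, at 1.09-fold for the sum of all members.

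**Figure D1:**
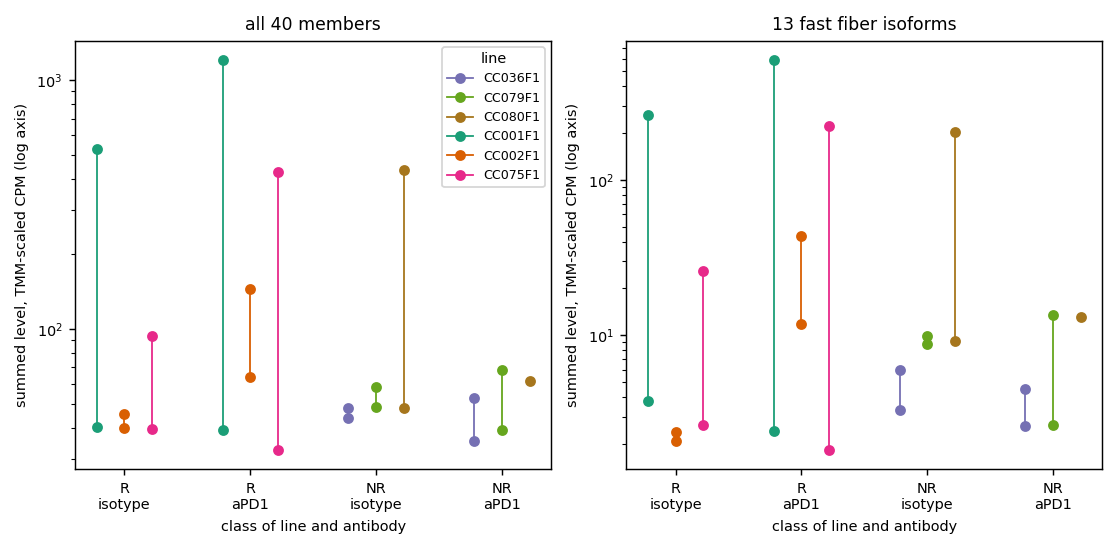
Summed TMM-scaled CPM (log axis) of the 40 members (left) and of the 13 fast fiber isoforms (right), by class of line and antibody. Each point is a tumor and lines join the tumors of a host line. The joined points of CC001F1 with aPD1 lie at 1201 and 39.3 CPM on the left.

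**Figure D2:**
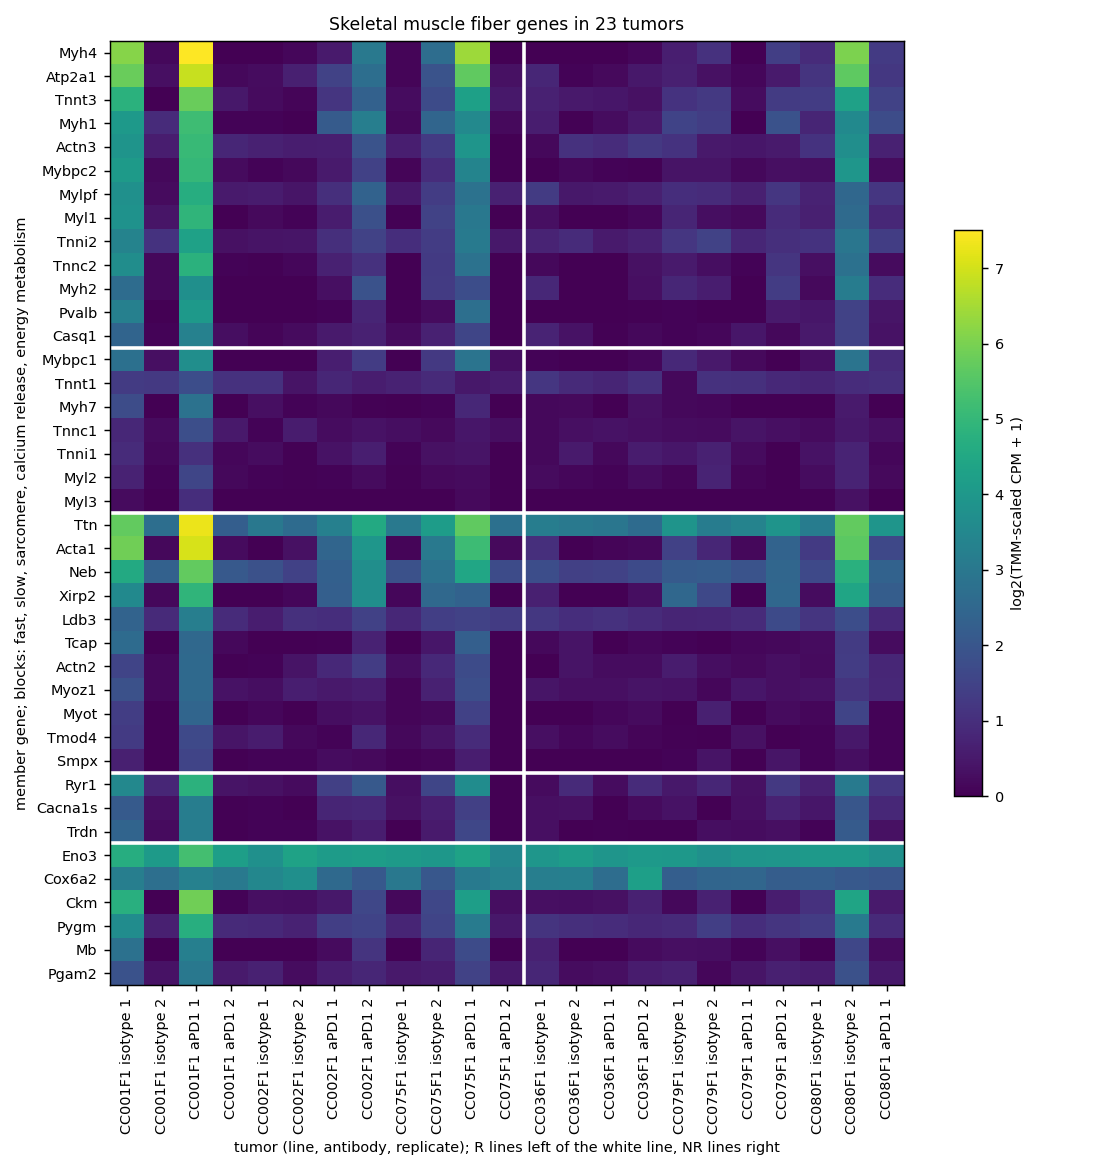
Level of each member in each tumor as log2(TMM-scaled CPM + 1), in blocks by role, with R lines to the left of the vertical white line. Columns of CC001F1 isotype 1, CC001F1 aPD1 1, CC075F1 aPD1 1 and CC080F1 isotype 2 are bright over most rows. Eno3 has a similar shade in most columns, and Cox6a2 is highest in CC036F1 aPD1 2.

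Among the fast isoforms, Myh4 (ENSMUSG00000057003, chromosome 11, 67238029 to 67260446, GRCm38), the heavy chain of the fastest fibers, had the widest range. Myh4 stood at 181 CPM in CC001F1 aPD1 replicate 1, 83.7 CPM in CC075F1 aPD1 replicate 1, 69.4 CPM in CC001F1 isotype replicate 1 and 64.3 CPM in CC080F1 isotype replicate 2, then at 7.25 CPM in CC002F1 aPD1 replicate 2, and had a count of 0 in 7 tumors. Its median over the 23 tumors was 0.464 CPM. By group, Myh4 ran from 0 through a median of 0.108 to 69.4 CPM in R isotype, from 0 through 3.86 to 181 CPM in R aPD1, and from 0 through 0.725 to 64.3 CPM in NR isotype tumors. In the 5 NR tumors given aPD1 it was 0, 0.0972, 0, 1.64 and 1.44 CPM. The 4 sets overlapped, and 1 or 2 high tumors set the top of each but the last.

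Ckm (chromosome 7, 19404776 to 19422841), the creatine kinase that regenerates ATP from phosphocreatine, showed the same tumors on top, with 57.7 and 25.6 CPM in the high CC001F1 tumors, 20.01 CPM in CC080F1 isotype replicate 2 and 17.6 CPM in CC075F1 aPD1 replicate 1. In the other tumor of each of these groups Ckm was at 0.0431, 0, 1.08 and 0.203 CPM. Atp2a1, the fast calcium pump, reached 117.6, 54.6, 50.4 and 48.6 CPM in the 4 tumors and was at most 5.57 CPM elsewhere. Acta1 (chromosome 8, 123891769 to 123894751), the actin of the thin filament, reached 132, 57.5, 48.1 and 34.4 CPM and was at most 14.4 CPM elsewhere.

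Behind these came the troponins and light chains of fast fibers. The fast troponins Tnnt3, Tnnc2 and Tnni2, which together sense calcium on the thin filament, reached 54.6, 26.5 and 18.7 CPM, with medians of 1.15, 0.209 and 1.04 CPM. The light chains Myl1 and Mylpf reached 28.8 and 24.7 CPM, and myosin binding protein Mybpc2 reached 30.8 CPM. Actn3, the alpha-actinin of fast fibers, reached 32.6 CPM. The calcium buffers Casq1 and Pvalb reached 8.76 and 15.3 CPM. Pvalb had a count of 0 in 10 tumors and a median of 0.0324 CPM.

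The slow isoforms were low throughout. Myh7, the heavy chain of slow fibers, was at 6.09 CPM in CC001F1 aPD1 replicate 1, 2.36 CPM in CC001F1 isotype replicate 1, 0.784 CPM in CC075F1 aPD1 replicate 1 and 0.47 CPM in CC080F1 isotype replicate 2, and had a count of 0 in 9 tumors. The slow light chains Myl2 and Myl3 reached 1.98 and 0.963 CPM, and Myl3 had no counts in 17 tumors. Slow troponins Tnnc1, Tnni1 and Tnnt1 reached 2.48, 1.06 and 2.43 CPM. Mybpc1, a binding protein expressed in slow fibers and also in some fast ones, was the exception with 12.2, 6.45, 6.42 and 5.79 CPM in the 4 tumors and 1.53 CPM in the next.

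Per kb of exon length, the fast isoforms summed to 227.5 and the slow ones to 8.66 CPM per kb in CC001F1 aPD1 replicate 1, so fast isoforms made up 96.3% of the level of both sets. The fast share was 96.7% in CC001F1 isotype replicate 1, 97.1% in CC075F1 aPD1 replicate 1 and 95.9% in CC080F1 isotype replicate 2. In the other 19 tumors it lay between 57.6% and 94.0%, on 13 to 221 slow counts each. There Tnnt1 alone gave 6.45% to 77.8% of the slow counts, against 4.56% to 12.3% in the 4 tumors with the highest sums. The median share over the 23 tumors was 80.0%.

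Protein by protein, fast isoforms exceeded slow ones per kb in every tumor with at least 20 counts for the pair for myosin heavy chains (15 of 15 tumors), both kinds of light chain (20 of 20 for Mylpf and Myl2, 10 of 10 for Myl1 and Myl3) and troponin I (17 of 17). The fast isoform exceeded the slow in 11 of 13 tumors for troponin C, in 12 of 21 for troponin T and in 7 of 10 for myosin binding protein C. Myosin binding protein C stood lowest in the tumors with the highest sums, with fast shares of 64.8% to 77.7%, where each other pair was at 92.8% or more.

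**Figure D3:**
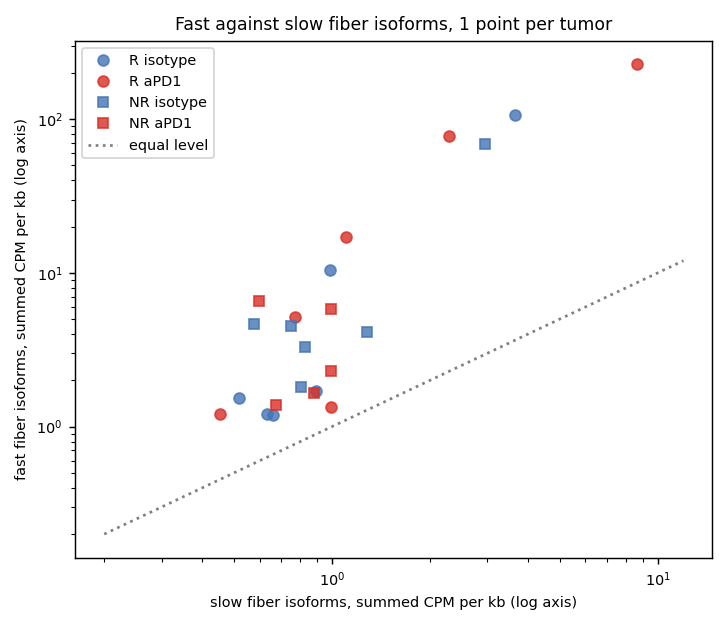
Summed level per kb of exon length (CPM per kb, log axes) of the slow (x) and fast (y) fiber isoforms, 1 point per tumor, by class and antibody. The 4 tumors at the upper right have 95.9% to 97.1% of the level in fast isoforms, and every point lies above the dotted line of equal level.

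Among sarcomere and Z-disc genes, Ttn and Neb, the giant proteins that span the thick and thin filaments, were present in every tumor, as was Ldb3. Ttn (chromosome 2, 76703980 to 76982547) ran from 3.77 through a median of 8.00 to 155 CPM, and Neb from 1.69 through 3.33 to 51.3 CPM. The Z-disc adaptor Ldb3 ran from 0.529 through 1.07 to 8.19 CPM. Other members of this block, such as Tcap (at most 5.23 CPM), Actn2 (4.89 CPM), Myoz1 (4.89 CPM), Myot (4.50 CPM), Tmod4 (2.13 CPM) and Smpx (1.89 CPM), had low levels and a count of 0 in at least 1 tumor. In calcium release, the receptor channel Ryr1 reached 27.1 CPM, its voltage sensor Cacna1s 8.02 CPM and the junctional protein Trdn 8.02 CPM, each highest in CC001F1 aPD1 replicate 1.

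Members that kept a level in each of the 23 tumors were counted at 0.5 CPM. There were 5, Eno3, Cox6a2, Ttn, Neb and Ldb3, and 28 of the 40 members had a count of 0 in at least 1 tumor. At 0.1 CPM there were 10, the added ones being Mylpf, Tnni2, Tnnt1, Pgam2 and Pygm, and at 1 CPM there were 4, without Ldb3. These cuts take no account of gene length, which favors long genes. Per kb of exon length, the medians of Eno3 and Cox6a2 were 8.84 and 8.33 CPM. Those of Ttn, Neb and Ldb3 were 0.0685, 0.125 and 0.175 CPM per kb. Mylpf, Tnnt3 and Tnni2, not counted at 0.5 CPM, had higher medians of 0.838, 0.724 and 0.692 CPM per kb. In the 19 tumors outside the top 4, Eno3, Ttn, Neb and Cox6a2 gave 38.4% to 84.7% of the counts of all members, against 20.1% to 22.8% in those 4. A sum over the members thus held, in most tumors, mainly counts of these 4 genes.

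Eno3 (chromosome 11, 70657202 to 70662513), the muscle form of the glycolytic enzyme enolase, was the steadiest member, with 10.2 CPM in the lowest, 15.4 CPM in the median and 37.2 CPM in the highest tumor, a 3.67-fold range. It was highest in CC001F1 aPD1 replicate 1, then in CC001F1 isotype replicate 1 (24.8 CPM) and CC075F1 aPD1 replicate 1 (19.1 CPM). In CC080F1 isotype replicate 2 it was at 15.8 CPM. The Pearson correlation of Eno3 with the other members on the log2(CPM + 1) scale was 0.72. Cox6a2 (chromosome 7, 128205435 to 128206387), a subunit of the respiratory chain found in heart and muscle, ran from 2.91 to 17.8 CPM (6.13-fold) and was highest in CC036F1 aPD1 replicate 2, where the other members were low. Its rank correlation with the sum of the other 39 members was -0.43 over the 23 tumors and -0.24 over the 17 deep ones. Ttn and Neb, by contrast, spanned 41.2-fold and 30.3-fold and had rank correlations of 0.77 and 0.75. So of the genes at 0.5 CPM or more in every tumor, Ttn and Neb followed the group and Cox6a2 did not.

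Of the remaining energy genes, the glycogen phosphorylase Pygm ran from 0.406 to 25.1 CPM and reached 0.5 CPM in 22 tumors. The phosphoglycerate mutase Pgam2 ran from 0.105 to 7.06 CPM, and the oxygen store Mb from 0 to 8.48 CPM with a count of 0 in 9 tumors. Over the whole list, 27 members had a rank correlation of at least 0.7 with the sum of the others and 5 were under 0.5 (Eno3 0.34, Tmod4 0.36, Tnnc1 0.26, Tnnt1 0.09 and Cox6a2). In 29 of the 40 members the 4 highest tumors were the 4 with the highest sums. These correlations describe the same 23 libraries, share their scaling factors and rest on few counts for low members.

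**Figure D4:**
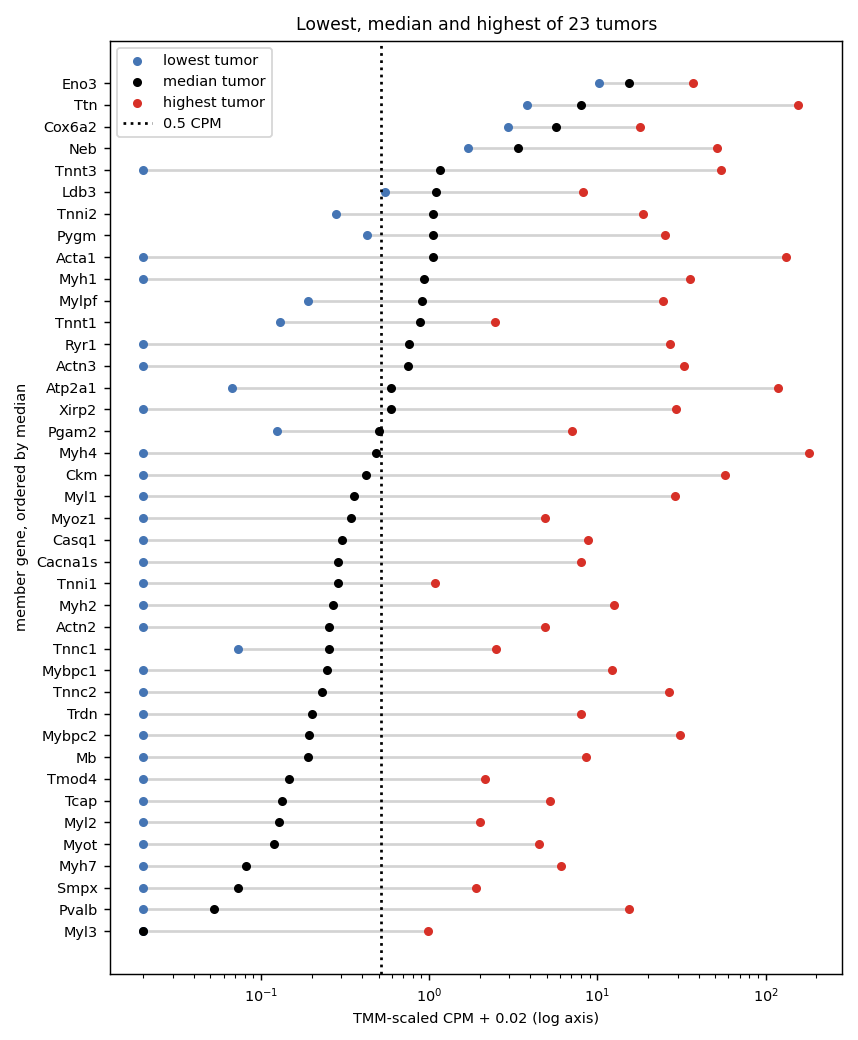
Lowest, median and highest level of each member over the 23 tumors as TMM-scaled CPM with 0.02 added (log axis), ordered by the median, with a dotted line at 0.5 CPM. Eno3, Cox6a2, Ttn, Neb and Ldb3 have their lowest tumor to the right of the line.

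The makeup of the muscle transcripts differed between tumors as well as their amount. Counts of the 3 fast heavy chains Myh1, Myh2 and Myh4, whose genes lie side by side on chromosome 11 and are close enough in sequence that reads can be shared between them, reached 100 in 11 tumors. Myh4 took 86.5% of them in CC075F1 aPD1 replicate 1 (95% exact interval 85.4 to 87.6%), 79.1% in CC001F1 aPD1 replicate 1 (78.3 to 79.8%), 77.4% in CC080F1 isotype replicate 2 (75.0 to 79.7%) and 76.7% in CC001F1 isotype replicate 1 (75.5 to 77.8%). In CC080F1 isotype replicate 1 it took 50.8%, in CC075F1 isotype replicate 2 47.8% and in CC002F1 aPD1 replicate 2 39.9%. The lowest share was 11.2% in CC002F1 aPD1 replicate 1 (7.65 to 15.5%), where Myh1, the heavy chain of fibers of the next speed, took 82.9%.

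A like shift was seen outside the myosins. Xirp2, an actin-binding protein of muscle attachment and repair sites, and Ckm were read as shares of the counts of the 36 members other than Eno3, Ttn, Neb and Cox6a2. Xirp2 took 1.25% (95% exact interval 1.07 to 1.45%) and Ckm 5.36% (4.98 to 5.75%) in CC075F1 aPD1 replicate 1, and 3.08% (2.93 to 3.23%) and 6.08% (5.88 to 6.29%) in CC001F1 aPD1 replicate 1. In CC002F1 aPD1 replicate 2 the order was the other way, with 13.7% (12.8 to 14.5%) for Xirp2 and 2.26% (1.91 to 2.66%) for Ckm. It was likewise 21.2% and 0.494% in CC079F1 isotype replicate 1, 14.8% and 1.67% in CC079F1 aPD1 replicate 2, 12.9% and 1.59% in CC080F1 aPD1 replicate 1, 12.8% and 1.33% in CC002F1 aPD1 replicate 1 and 9.01% and 3.90% in CC075F1 isotype replicate 2.

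The pattern did not follow the sum in every tumor. CC080F1 isotype replicate 1, with a sum of only 47.9 CPM, had 1.01% Xirp2 and 5.77% Ckm, on 1283 counts of the 36 members. CC080F1 isotype replicate 2 had near-equal shares, 6.07% and 5.95%. These 2 genes were singled out after their values had been seen, and no test was made. Across the 36 members on a log2(CPM + 0.1) scale, the profiles of the 4 tumors with the highest sums correlated at 0.92 to 0.98 with each other. CC002F1 aPD1 replicate 2 and CC075F1 isotype replicate 2 correlated at 0.95 with each other and at 0.81 to 0.89 with those 4. These correlations are across genes, which are not independent replicates.

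**Figure D5:**
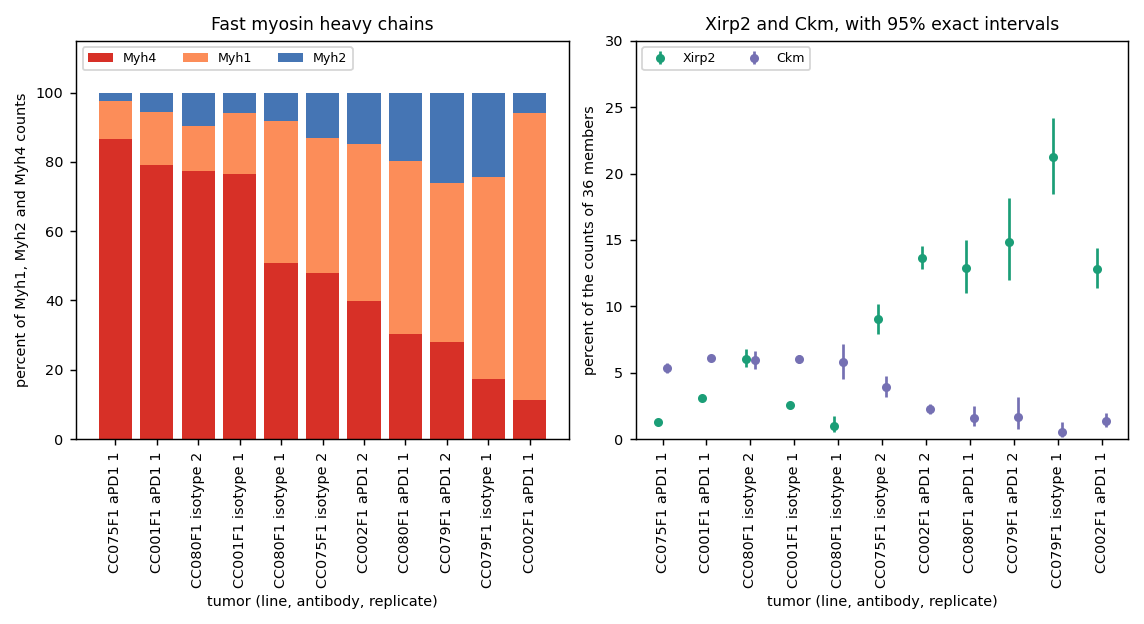
Left, share of Myh4, Myh1 and Myh2 among their summed counts in the 11 tumors with at least 100 such counts, ordered by the Myh4 share. Right, share of Xirp2 and Ckm among the counts of 36 members in the same tumors, with 95% exact binomial intervals. Xirp2 is below Ckm in CC075F1 aPD1 1 and above it in CC002F1 aPD1 1.

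Isotype tumors allowed a comparison of R with NR lines on samples other than those from which the list was drawn. Over the members, the summed level ran from 39.6 through a median of 42.7 to 530.1 CPM in the 6 R tumors and from 43.8 through 48.3 to 433 CPM in the 6 NR tumors, so the classes overlapped and each held 1 high tumor. In the DESeq2 fit over all genes, 829 of the 14995 genes with an adjusted p were called at an adjusted p under 0.05, which is 5.53% of them (2.29% higher in R), and 0 of the 40 members were. Only 14 members had an adjusted p, since DESeq2 withheld p-values of 19 members in which 1 tumor weighed heavily and left others out for low counts. The lowest adjusted p of a member was 0.316, and 0 members had an unadjusted p under 0.05, beside 3285 of 24538 genes fitted. edgeR tested all 40 members and called 0 of them, with a lowest adjusted p of 0.369. Among its tests 0 members had an unadjusted p under 0.05, beside 3681 of 24538 genes. edgeR called 30 genes in all, which is 0.122% of those tested.

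The fitted differences had wide errors. Ckm differed by 0.32 ± 1.62 (log2 R over NR, SE), Myh4 by 0.14 ± 2.25, Atp2a1 by 0.16 ± 1.65 and Acta1 by 0.27 ± 1.92, each with an edgeR adjusted p of 0.919 or more. Ttn differed by -0.07 ± 0.72 and Xirp2 by -0.84 ± 1.70, with DESeq2 adjusted p of 0.975 and 0.837. The steady members had narrow errors. Eno3 differed by 0.18 ± 0.14 (6 and 6 tumors, DESeq2 adjusted p = 0.517), and Cox6a2 by 0.53 ± 0.30 (DESeq2 adjusted p = 0.316).

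The median difference over the 40 members was 0.28 on the log2 scale, against 0.00434 over all genes fitted, and its direction rested on single tumors. Without CC001F1 isotype replicate 1 it was -1.52, and without CC080F1 isotype replicate 2 it was 1.54. With both left out, as an alternative added after the values had been seen, it was -0.0489, and DESeq2 again called 0 members. In the deep libraries alone, which leave out CC080F1 isotype replicate 2, the median was 2.06, with 0 members called of 27 with an adjusted p.

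Among tumors given aPD1 the same genes are given as a description, because the list came from this contrast. Calls of members in it rest on values that chose them, and nothing is read from their number. The summed level was 1201, 39.3, 64.2, 144, 426 and 32.6 CPM in the 6 R tumors and 35.5, 52.7, 39.1, 68.2 and 61.9 CPM in the 5 NR tumors. The highest NR tumor exceeded 3 of the 6 R tumors. DESeq2 called 1361 of 17161 genes (7.93%) and 9 of the 40 members, all higher in R beside 5.94% of genes called higher (Ckm, Atp2a1, Mybpc2, Tnnt3, Acta1, Mylpf, Neb, Pgam2 and Pygm), while edgeR called 560 genes (2.25%) and 0 members. The median over members was 2.99, and was 0.47 without CC001F1 aPD1 replicate 1 and CC075F1 aPD1 replicate 1, when DESeq2 called 0 members beside 1038 of 17294 genes. Leaving out 1 tumor at a time gave 0 to 18 members. There were 0 without CC075F1 aPD1 replicate 1 (beside 928 of 16062 genes) and 2 without CC001F1 aPD1 replicate 1 (beside 1577 of 17454). When the left-out tumor was the first of CC036F1 or of CC079F1 there were 3 (beside 1019 of 17916 and 1105 of 16499). When it was the second of CC036F1 there were 5 (beside 1198 of 16414), and 18 when it was the second of CC075F1 (beside 1314 of 17579).

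The antibody was compared within each class with line as a term, on tumors that include the same aPD1 tumors. Member values here rest partly on those that chose the list. They are a description, and nothing is read from the counts of members below. In R lines the median over members was 1.92 (log2 aPD1 over isotype), and in NR lines it was -0.64, beside medians over all genes of -0.00628 and 0.00942. DESeq2 called 0 members in either class, beside 826 genes (5.26%, or 4.85% higher with aPD1) in R and 11 genes (0.0448%, or 0.0407% higher) in NR lines. An unadjusted p under 0.05 was found for 4 of 40 members in R lines, beside 2722 of 24858 genes fitted. In NR lines it was found for 1 of 40 members, beside 1316 of 24552 genes. In edgeR 0 members were called in either class as well. In R lines leaving out CC001F1 isotype replicate 1 gave 2 called of 36 members tested, beside 589 of 15554 genes, and leaving out CC075F1 isotype replicate 2 gave 1 of 36, beside 961 of 15085 genes. In NR lines the median was -0.09 without CC080F1 isotype replicate 2.

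Genes outside the members were ordered by how alike their pattern was. Of 13627 genes with a mean of at least 1 CPM, the 15 with the highest rank correlation with the summed members over the 23 tumors included Des (0.93), Klhl41 (0.89), Nrap (0.85), Fhl1 (0.80), Cmya5 (0.80), Nek6 (0.75), Sptb (0.73), Ndrg2 (0.73), Mylk2 (0.73), Myom1 (0.73), Ankrd23 (0.72), Myo18b (0.68) and Smyd4 (0.66). Des, the intermediate filament that ties myofibrils together, ran from 0.948 through 3.40 to 31.2 CPM, and Cmya5 from 0.113 to 19.3 CPM. Of the 15, 6 were on the list of other sarcomere genes (Des, Klhl41, Nrap, Cmya5 and Myom1 among them). Nek6, in contrast, hardly moved, from 46.3 to 58.3 CPM. In the deep libraries 10 of the 15 were again among the 15 nearest, and 11 were with a Pearson correlation of log2(CPM + 1).

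Further muscle lists split in the same way between genes that followed the fast isoforms and genes that did not. Of 22 other sarcomere genes, 18 had a rank correlation of at least 0.5 with the summed fast isoforms, but the highest levels were Tpm3 (median 511.7 CPM), Tpm1 (431.7 CPM), Tpm2 (46.0 CPM) and Myh13 (9.73 CPM), and Tpm3 and Myh13 had correlations of 0.06 and 0.04. Of 12 other calcium handling genes 7 passed 0.5, and the most abundant, Asph, Jph1, Cacnb1 and Stac3 (medians 166.6, 16.3, 9.98 and 0.784 CPM), did not. Of 12 other muscle metabolism genes 5 passed it. Pfkm and Phka1 had medians of 78.6 and 34.9 CPM and did not, while Eef1a2, a translation factor of muscle and nerve, was at 7.002 CPM in CC001F1 aPD1 replicate 1 and had a count of 0 in 7 tumors. Phkg1 was at a median of 0.441 CPM. The share of all genes with a rank correlation of at least 0.5 with the fast isoforms was not computed.

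Most regulators of myogenesis were near the floor. The table held 9 of the 10 listed myogenic regulator and satellite cell genes. Only 2 of them had an adjusted p in the DESeq2 fit between isotype classes. Of these 1, Chrna1, was called, beside 5.53% of all genes with an adjusted p. Among the 9, Mef2c and Chrna1 had medians of 33.3 and 16.9 CPM, Musk was at 0.418 CPM and Cdh15 at 0.106 CPM. Pax7, the satellite cell marker, had a count of 0 in 22 of 23 tumors. Myf6, the regulator most abundant in adult muscle, had 29 counts in CC001F1 isotype replicate 1, 26 in CC001F1 aPD1 replicate 1 and 12 in CC080F1 isotype replicate 2. Myog, which acts in differentiating myoblasts, had 35 counts in CC002F1 aPD1 replicate 2 and 20 in CC075F1 isotype replicate 2, and 8 in each of the high CC001F1 tumors. Myh8, the perinatal heavy chain, had 65 and 51 counts in CC002F1 aPD1 replicate 2 and CC075F1 isotype replicate 2 (0.914 and 1.05 CPM) and at most 12 in any other tumor. Myf6, Myog and Myh8 were picked after their values had been seen.

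Summed over each list, further muscle genes had rank correlations with the summed fast isoforms of 0.52 (other sarcomere) and 0.45 (other muscle metabolism). Myogenic regulators and satellite cell genes were at 0.38 and other calcium handling genes at 0.17. Abundant genes weigh most in such sums. Marker lists of other tissues lay between -0.26 and 0.34. Gene by gene, 1 cardiac, 1 smooth muscle and 1 tendon and fascia gene reached 0.5, and 0 genes of the other tissue lists did. Rank correlations of list sums with the summed fast isoforms over the 23 tumors were 0.07 for adipocyte, -0.26 for brown adipocyte, -0.13 for keratinocyte, 0.04 for hair follicle, 0.03 for Schwann cell, 0.15 for tendon and fascia, 0.34 for fibroblast, 0.27 for endothelial, 0.29 for erythroid, -0.14 for smooth muscle, 0.11 for cardiac and -0.16 for epithelial tumor cell genes. Adipocyte genes summed to 9.85 to 88.6 CPM and were highest in CC079F1 aPD1 replicate 1, where the fast isoforms were at 2.64 CPM, with Fabp4, Lipe, Cfd and Plin4 leading. Keratinocyte genes summed to 2.06 to 6.00 CPM, mostly Krt10, and Krt14, Trp63 and Krt5 did not exceed 1.05 CPM. Hair follicle genes, Tchh and Krt25 among them, did not exceed 0.733 CPM in sum, and brown adipocyte genes, led by Ucp1, did not exceed 5.45 CPM.

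Cardiac genes summed to 9.03 to 15.98 CPM, of which Tnnt2 was the largest part, and Myh6 and Nppa were at most 0.794 and 0.109 CPM. Smooth muscle genes, led by Smtn, Acta2, Tagln and Synpo2, summed to 98.9 to 160 CPM. Endothelial genes (Cdh5, Pecam1, Kdr and Emcn) summed to 48.1 to 164 CPM, and fibroblast genes (Dcn, Pdgfra, Col1a1 and Col1a2) to 774 to 1849 CPM. Erythroid genes (Hba-a2, Hbb-bs, Hbb-bt and Alas2) summed to 8.04 to 125 CPM and were highest in CC001F1 isotype replicate 1, a tumor with a high muscle sum, whereas CC001F1 aPD1 replicate 1 had 38.8 CPM. Schwann cell genes (Pmp22, Mbp and Prx among them) summed to 50.1 to 79.4 CPM and tendon and fascia genes (Mkx, Thbs4, Scx and Fmod) to 8.24 to 14.7 CPM. The part of these cells in the muscle differences was not tested.

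In isotype tumors DESeq2 called 7 of the 67 genes of these further lists that had an adjusted p (10.4%) between R and NR lines, beside 5.53% of all genes, and edgeR called none of the 7. Among muscle lists these were Myh13, an extraocular heavy chain (-0.68 ± 0.14, DESeq2 adjusted p = 0.000516), Chrna1, the acetylcholine receptor subunit (-0.79 ± 0.20, 0.00688), and Asph (-0.24 ± 0.06, 0.00564), all lower in R. Each was called in 12 of the 12 fits that left out 1 tumor, but not in edgeR (adjusted p = 0.0655, 0.0992 and 0.0883), in limma fitted with lines as random terms (0.1003, 0.163 and 0.132) or in the deep libraries alone (0.1501, 0.416 and 0.153). With counts summed per line, Asph was not called either (DESeq2 adjusted p = 0.0582). The other 4 were Tagln (higher in R, 0.76 ± 0.17), Pmp22 (-0.46 ± 0.10), Dcn (-0.35 ± 0.09) and Dpt (-0.86 ± 0.24). Myh13, Chrna1 and Asph had rank correlations of 0.04, 0.11 and 0.10 with the fast isoforms.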

How the data were processed

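RNA from 23 MC38 tumors was sequenced after poly(A) selection. The authors aligned reads with Bowtie 1.2.3 to transcriptomes of the founder strains on GRCm38, converted the alignments to EMASE format and quantified expression with gbrs. They deposited expected counts per gene, which share reads between similar genes, so levels of the neighbouring fast myosin heavy chains, of Acta1 against other actins and of Eno3 against other enolases are uncertain. Of the deposited values 16.9% were not whole, and all were rounded here.

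Tumors were grouped by the line and antibody in their titles. The assignment of lines to the R and NR classes came from the study's text. Line lies within class, and tumors of a line were treated as independent, so p-values may be too small. The titles call the 2 tumors of a group biological replicates and do not say whether they came from separate mice. The p-values measure only the spread between these samples. The 40 members, the other gene lists and the tests were chosen with earlier results of these data known.

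R and NR lines were compared with DESeq2 1.42.0 (Wald test, default options, at least 5 summed counts, adjusted p under 0.05), with Benjamini-Hochberg adjustment over all genes, and the antibody was compared within class with line as a term. edgeR 4.0.16 (quasi-likelihood), limma 3.58.1 (voom), other filters and scalings, deep libraries and sums per line were alternatives, all in R 4.3.3. Only DESeq2 and edgeR were run on simulated counts, for the isotype comparison. They recovered 98% and 97% of genes changed by 2 on the log2 scale, and 14.29% and 4.37% of their calls were false. The changed genes had high counts and low dispersion and no line effect was simulated, so this does not cover the low members. Levels were CPM with TMM scaling, divided by exon length only where given per kb. Gene names and lengths came from a GENCODE annotation of the same build but another release than the one the authors used, and 26681 of 26869 identifiers matched. The text names all 40 members, the 15 other genes nearest to their sum, and up to 4 genes of highest mean level per further list, apart from a few that are not reported here, and other names are said to be chosen after their values were seen.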

Additional observations from a re-analysis of the deposited data

Results flagged for a closer look

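In 3 of the 4 groups formed by class and antibody, 1 tumor stood apart from the others in the summed level of the 40 members by a test of its gap against the range of the group. These were CC001F1 isotype replicate 1 at 530.1 CPM among the 6 R isotype tumors, CC001F1 aPD1 replicate 1 at 1201 CPM among the 6 R tumors given aPD1, and CC080F1 isotype replicate 2 at 433 CPM among the 6 NR isotype tumors. For the fast isoforms, CC001F1 isotype replicate 1 stood apart at 261 CPM and CC080F1 isotype replicate 2 at 203 CPM. For the slow isoforms, CC001F1 isotype replicate 1 stood apart at 12.1 CPM, CC001F1 aPD1 replicate 1 at 27.2 CPM and CC080F1 isotype replicate 2 at 9.87 CPM. The sums share genes and tumors, so these are not 8 separate results. The cutoffs of the test assume normally spread values, which was not checked for these uneven sums. The rate of such flags by chance is therefore not known. The list was chosen on tumors given aPD1, so the flags of CC001F1 aPD1 replicate 1 rest partly on values that chose it. The shallow library of CC080F1 isotype replicate 2 held 6448 member counts. The cause was not tested.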

How the results depend on the processing

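In isotype tumors 0 members were called under every alternative run, while the 829 genes called became 30 in edgeR, 28 in edgeR with its expression filter, 44 in deep libraries, 315 with counts summed per line, 3 in limma and 507 without CC001F1 isotype replicate 1 and CC080F1 isotype replicate 2, and 402 to 1838 without 1 tumor. In aPD1 tumors the 1361 genes became 560 in edgeR, 607 with its filter and 199 in limma, and 928 to 1577 without 1 tumor. The list came from this contrast, so its member counts are a description. The 9 members called there became 0 in edgeR with or without its filter, 0 in limma, 15 in deep libraries (beside 1108 of 18474 genes), 29 with counts summed per line (beside 995 of 19570), 0 without CC001F1 aPD1 replicate 1 and CC075F1 aPD1 replicate 1 (beside 1038 of 17294), and 0 to 18 without 1 tumor. The members at a level in every tumor became 10 at 0.1 CPM.

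Differences between replicates 1 and 2 correlated at -0.26 to 0.28 between isotype groups and above 0.1 in 5 of 15 pairs. This check did not include tumors given aPD1 and cannot decide whether replicate numbers pair the samples. With the replicate number as a block, 1005 of 14504 genes and 0 members were called in isotype tumors, and 1252 of 17154 genes and 2 members in aPD1 tumors.

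Of the isotype differences of single members, Ttn changed sign to 0.85 and Xirp2 to 0.93 in deep libraries. Without 1 tumor, Ckm ran from -2.84 to 3.37, Myh4 from -3.31 to 4.60, Atp2a1 from -3.49 to 4.10, Acta1 from -2.55 to 3.44, Ttn from -0.95 to 0.78, Neb from -0.94 to 1.33 and Xirp2 from -2.22 to 0.79, while Eno3 (0.04 to 0.25) and Cox6a2 (0.34 to 0.71) kept their sign. The antibody medians ran from 1.14 to 2.94 in R and from -1.0 to -0.09 in NR lines. The cause of these changes was not tested. In the shallowest library 3 counts equal 0.203 CPM, so levels below that could not be told from 0 there.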

Other observations

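Other tissues also peaked in single tumors. Ucp1, the uncoupling protein of brown fat, had a count of 0 in 16 tumors and reached 3.94 CPM in CC002F1 isotype replicate 1, where Cidea was at 0.979 CPM and Elovl3 at 0.529 CPM, and where the summed muscle members were at 39.9 CPM. The adipocyte genes Cfd and Pck1 reached 19.02 and 5.28 CPM in CC079F1 aPD1 replicate 1, with Fabp4 at 40.02 CPM, while the fast isoforms were at 2.64 CPM there. Hba-a2 and Hbb-bs reached 63.8 and 47.4 CPM in CC001F1 isotype replicate 1, beside medians of 11.4 and 11.7 CPM. These genes were named after their values had been seen, and no test was made.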
